A study of Mus musculus with 12 samples.

Results

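The expressed solute carriers of cultured mouse macrophages are described here: 83 genes, chosen by their level in untreated cells. Of 32246 genes in the table, 312 were protein-coding and carried a symbol made of a carrier family and a member number. A mean of at least 5 FPKM (fragments per kilobase of transcript, scaled to the depth of the library) over the 4 untreated libraries was reached by 93 of them, and 10 of these were left out by name. The names left out were some carriers of iron, zinc, glucose, lactate, arginine, large neutral amino acids and cystine. The other 216 carriers lay under that level. Macrophages had been grown from mouse bone marrow for 7 days with the cytokine GM-CSF at 50 ng/mL. They were left untreated, given plasminogen (PLG) previously exposed to EACA, or given PLG previously exposed to both EACA and RNases, each for 24 h, with 4 libraries of total RNA a group. EACA is 6-aminohexanoic acid, an analogue of lysine that binds plasminogen. The groups are called untreated, PLG+EACA and PLG+EACA+RNase. No group was given EACA alone, RNases alone, or PLG that had not met EACA, so none of these can be told apart from the whole preparation. An action of RNases on the cells cannot be told apart from one on the preparation. The labels do not tell whether replicates were separate animals or cultures, and p-values therefore measure only the spread between these libraries.

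Solute carriers are membrane proteins that move small molecules across membranes by facilitated diffusion, by exchange, or by coupling to the gradient of an ion. Each family is numbered, and a family usually shares a substrate class and often a membrane: most Slc25 proteins sit in the inner mitochondrial membrane, Slc39 proteins bring zinc into the cytosol and Slc30 proteins take it out. In macrophages such carriers set the supply of glutamine, essential amino acids, vitamins and metals, and several of them empty the lysosome of what phagocytosis brings in.

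The libraries held 12940888 to 22677041 counted reads, worked out from the smallest steps between FPKM values, and a carrier of the 83 had between 105 and 20627 reads in a library. All 83 passed the filter on low values (1 FPKM or more in 4 or more of 12 libraries), as did 11165 genes in all. Of the 7 macrophage markers all were tested, with a summed level of 5189 to 5788 FPKM in untreated libraries, 3952 to 5785 with PLG+EACA and 3949 to 4468 with PLG+EACA+RNase, most of it Lyz2. Csf1r, the receptor that maintains macrophages, had means of 324, 187 and 186 FPKM. Against untreated cells 2 of the 7 (Mertk and Fcgr1) were higher and 4 lower with PLG+EACA, and 1 higher and 4 lower with PLG+EACA+RNase, on the deposited values. After the scaling used below the same counts were 2 and 3, and 1 and 1, the last being Csf1r. The summed level of 6 dendritic cell markers ran from 69.2 to 105, from 77.8 to 146 and from 116 to 145 in the same order, most of it Ccr7. Clec9a went the other way, with means of 4.97, 2.2 and 2.89 FPKM, lower than untreated with both scalings in both treated groups, while Zbtb46 was higher by the same rule, and the means of Flt3 and Xcr1 were under 1 FPKM. Neutrophil markers summed to 11.4 to 45.3, 20.5 to 52.7 and 19.8 to 44.7, mostly S100a8 and S100a9, with Ly6g at 0 in untreated libraries. Stroma and endothelium markers summed to 18.2 to 29.2, 19 to 36.4 and 24.4 to 34, and mast cell markers to at most 6.60. T and NK cell markers, B cell markers and the erythroid marker Klf1 stayed under 1 FPKM in sum in all 12 libraries. What part these shifts have in the differences of the carriers was not tested, and in bulk RNA fewer cells of a kind and less RNA per cell cannot be told apart.

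Levels in untreated cells, which FPKM gives per length listed for the gene, are a description, since they chose the carriers. They ran over a wide range, with a median of the means of 12.5 FPKM, and 34 of the 83 lay between 5 and 10. Only 5 carriers reached 100 FPKM. Slc25a5, an ADP/ATP carrier of the inner mitochondrial membrane, had a level of 217, 199.8, 215 and 208 FPKM in untreated replicates 1 to 4. Slc48a1, which moves heme out of the phagolysosome, had 211, 188, 195 and 206, and Slc2a6, a hexose carrier of lysosomes, had 168, 181, 161 and 177. The libraries of Slc25a5 and Slc48a1 overlapped, and those of Slc2a6 lay below both. Slc15a3, a peptide and histidine carrier of endosomes and lysosomes, followed with 139, 130.4, 137 and 131, and the copper carrier Slc31a2 with 105, 106, 108 and 106, each below every value of the one before. At the lower end Slc7a7 (5.08 FPKM) and Slc37a3 (5.19) lay just inside the limit of 5 and Slc39a13 (4.94) and Slc30a5 (4.92) just outside it. The 83 levels summed to 2132 to 2204 FPKM in untreated libraries, 2001 to 2094 with PLG+EACA and 1913 to 2017.5 with PLG+EACA+RNase, as deposited. Divided by the scaling factors described with the tests, the sums were 1915 to 1949 in untreated libraries, 2126 to 2388 after PLG+EACA and 1984 to 2149 after PLG+EACA+RNase, so the order of treated and untreated libraries turned with the scaling and no direction is given. The 5 highest carriers held 37.4% to 38.1% of that sum in untreated cells, 43.4% to 46.1% with PLG+EACA and 39.5% to 44.2% with PLG+EACA+RNase.

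**Figure D1:**
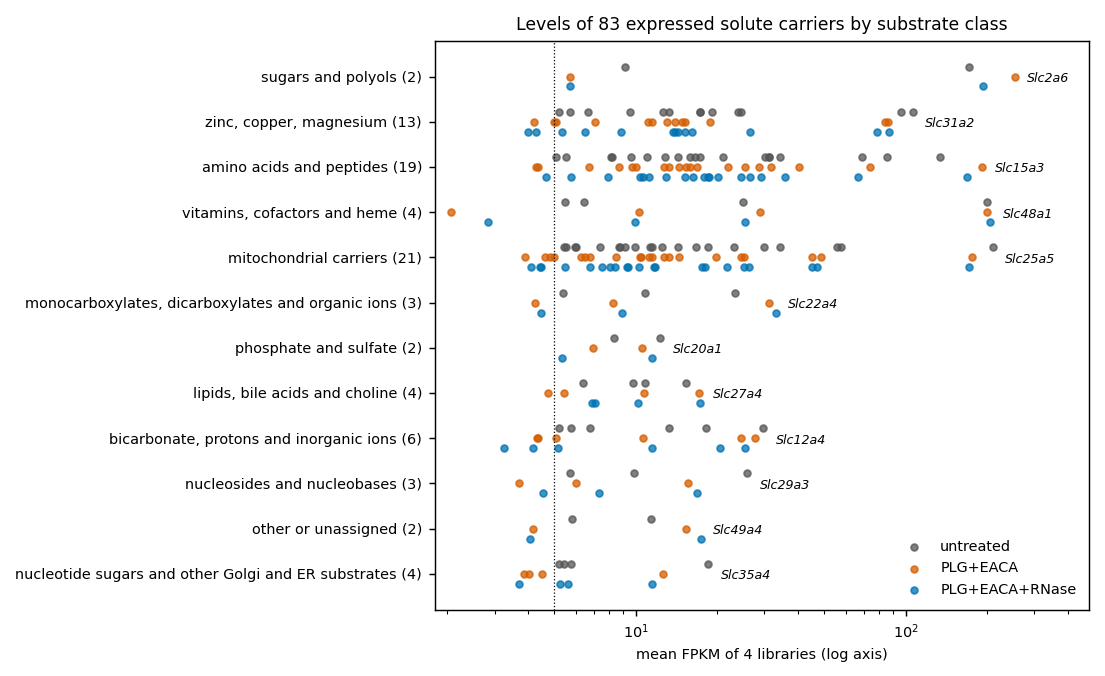
Mean FPKM over the 4 libraries of a group (log axis) for each of the 83 carriers, by substrate class (number of carriers in parentheses), with 1 point per carrier and group and the carrier with the highest untreated level named. The dotted line marks 5 FPKM, the limit that chose the carriers in untreated cells; most points of the treated groups lie at or somewhat left of their untreated point, while Slc2a6 reaches 253 with PLG+EACA.

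The median coefficient of variation of the carriers within a group was 3.88% in untreated libraries, 9.0% after PLG+EACA and 8.89% after PLG+EACA+RNase. Over the 6145 tested genes with an untreated mean of at least 5 FPKM it was 4.30%, 7.92% and 7.73%. Replicate 4 was the lowest library of its group for 37 of 83 carriers with PLG+EACA and for 37 with PLG+EACA+RNase, against 21 in untreated cells, and the highest for 24, 15 and 21. It also stood apart over all genes with reads, by the distance between a pair of libraries (chi-square per degree of freedom). With PLG+EACA, pairs with replicate 4 had 18.9 to 30.6 and the others 5.33 to 13.1. With PLG+EACA+RNase these were 12.2 to 21.2 and 7.11 to 8.66.

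The question put to the 83 carriers was first how each preparation changed them against untreated cells. The 2 preparations share the untreated libraries, which also set the limit of 5 FPKM, so their values stand side by side below. Values are differences on log2(FPKM + 0.5), tested with limma over all 11165 genes with Benjamini-Hochberg adjustment at 0.05. Between untreated and treated cells the median of all genes moved by -0.26 after PLG+EACA and by -0.20 after PLG+EACA+RNase, and scaling each library by its median ratio to the other libraries took that shift to -0.01 and 0.01. Below, a carrier rose or fell where it passed in the same direction with both scalings. The second value after a difference is the one after scaling.

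With PLG+EACA 14 carriers rose and 19 fell, and with PLG+EACA+RNase 12 rose and 27 fell. Of all genes tested 14.9% rose and 26.4% fell by the same rule with PLG+EACA, and 16% and 26.4% with PLG+EACA+RNase, against 16.9% and 22.9% of the carriers with PLG+EACA and 14.5% and 32.5% with PLG+EACA+RNase. The share of carriers that rose was near that of all genes. Counts by substrate class below rest on few carriers and are to be read beside these shares of all genes. On the deposited values alone 14 were higher and 57 lower with PLG+EACA (all genes 14.9% and 53.4%), and 12 higher and 49 lower with PLG+EACA+RNase (all genes 16% and 48.4%). After scaling the counts were 19 and 19 (all genes 27.3% and 26.4%), and 23 and 27 (all genes 28.4% and 26.4%). No carrier was lower in one and higher in the other. The median difference of the 83 was -0.30 after PLG+EACA and -0.27 after PLG+EACA+RNase, close to the medians of all genes given above. Few changes were large. On the deposited values 2 carriers were at least 2-fold higher with PLG+EACA (Slc7a8 and Slc25a22) and 2 at least 2-fold lower (Slc6a12 and Slc19a2). With PLG+EACA+RNase only Slc6a12 was, and it was lower. After scaling 2 were at least 2-fold higher and 0 lower with PLG+EACA, and 1 higher and 1 lower with PLG+EACA+RNase.

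**Figure D2:**
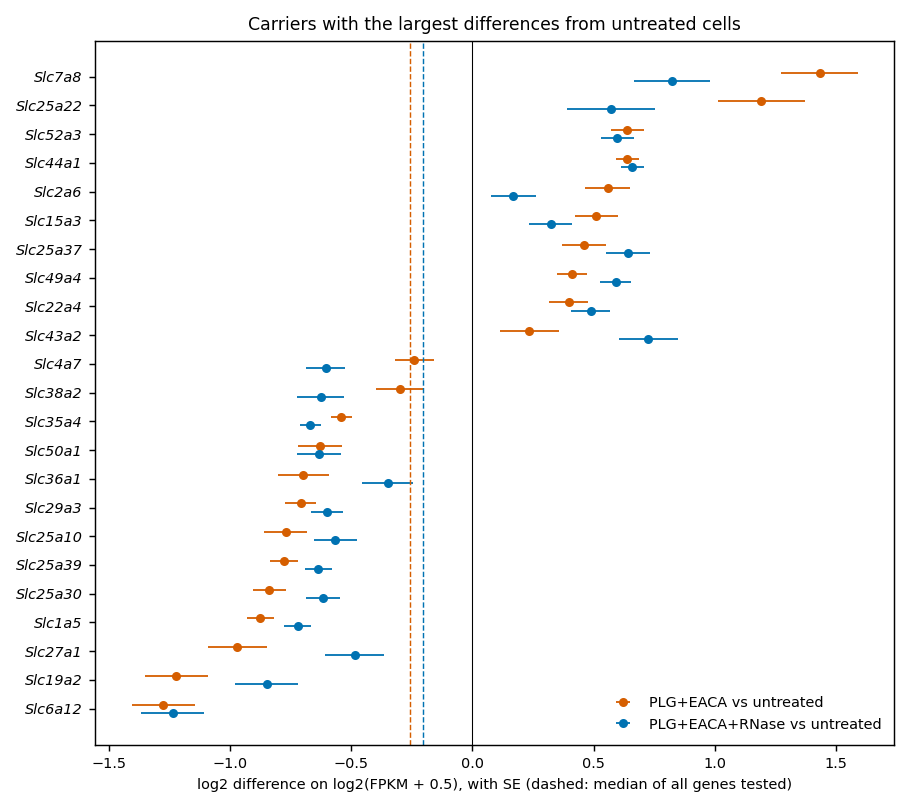
Difference from untreated cells on log2(FPKM + 0.5) with its standard error (n = 4 libraries a group) for the carriers with the largest changes in either preparation, for PLG+EACA and PLG+EACA+RNase, as colours in the key. Dashed lines give the median of all genes tested, -0.26 and -0.20; Slc7a8 lies at 1.43 and 0.82, Slc6a12 at -1.27 and -1.24.

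The sequences upstream of the starts of the 4 carriers with changes of at least 2-fold on the deposited values are shown because these genes moved most. They are RefSeq windows on GRCm38.p6, written 5′ to 3′ on the strand of the gene and ending just before the RefSeq start or, for Slc7a8 and Slc25a22, before the first base that GENCODE places in an exon. The stretches are chr14:54781947-54782136 (minus strand) for Slc7a8, chr7:141435398-141435625 (minus) for 1 of 3 starts of Slc25a22, chr6:121342324-121342573 (plus) for the most upstream of 5 starts of Slc6a12, which lies ahead of the gene's start in the deposited table, and chr1:164248796-164249045 (plus) for Slc19a2. Capitals mark matches to the 4 motifs searched on both strands. In Slc25a22 this is the core of the interferon-stimulated response element, starting 79 bases before the RefSeq start. In Slc6a12 it is the AP-1 motif TGANTCA, starting 58 bases before the RefSeq start. For both genes the window shown is the only one with a match to any of the 4 motifs. The start shown for Slc25a22 lies within the gene's span in the deposited table, downstream of the gene's start there.
Slc7a8: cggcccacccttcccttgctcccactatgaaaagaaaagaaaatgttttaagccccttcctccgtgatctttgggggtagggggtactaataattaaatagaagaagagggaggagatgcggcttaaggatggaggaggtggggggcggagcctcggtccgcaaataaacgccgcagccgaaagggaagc
Slc25a22: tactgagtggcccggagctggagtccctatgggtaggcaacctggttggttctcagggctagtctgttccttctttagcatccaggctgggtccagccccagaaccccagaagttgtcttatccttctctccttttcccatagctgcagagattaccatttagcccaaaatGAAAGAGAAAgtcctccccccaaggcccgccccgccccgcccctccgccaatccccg
Slc6a12: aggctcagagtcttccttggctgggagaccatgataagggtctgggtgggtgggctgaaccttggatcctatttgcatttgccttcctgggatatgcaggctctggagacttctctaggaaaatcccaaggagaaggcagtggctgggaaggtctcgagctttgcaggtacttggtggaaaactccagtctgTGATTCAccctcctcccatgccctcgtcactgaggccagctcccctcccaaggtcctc
Slc19a2: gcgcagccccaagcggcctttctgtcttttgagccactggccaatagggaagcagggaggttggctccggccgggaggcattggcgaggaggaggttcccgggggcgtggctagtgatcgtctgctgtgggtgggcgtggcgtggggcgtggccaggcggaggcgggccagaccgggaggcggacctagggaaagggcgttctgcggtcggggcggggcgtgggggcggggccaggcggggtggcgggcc
The upstream stretch of Slc19a2 was 73.2% G and C, against 53.2% to 57.5% in the other 3.

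Among 19 carriers of amino acids, peptides and amines, 3 rose and 4 fell with PLG+EACA, and 3 rose and 3 fell with PLG+EACA+RNase. Slc7a8 (chr14:54722209-54781946, minus strand) encodes LAT2, the light chain of an exchanger of neutral amino acids, and was the carrier with the largest rise. Its level was 15, 14.3, 14 and 14.3 FPKM in untreated replicates 1 to 4, 39.1, 35.4, 34.5 and 52 after PLG+EACA and 25.2, 20.8, 23.4 and 36.4 after PLG+EACA+RNase. All treated libraries lay above all untreated ones, and replicate 4 was the highest of each treated group. The rise was 2.7-fold with PLG+EACA (log2 difference 1.43, SE 0.16, 1.70 after scaling, adjusted p = 9.52e-06) and 1.77-fold with PLG+EACA+RNase (log2 difference 0.82, SE 0.16, 1.05 after scaling, adjusted p = 0.000662). Without replicate 4 of the treated group the differences were 1.30 and 0.66. Slc43a2, which encodes LAT4, a uniporter of branched-chain and other neutral amino acids, had a level of 11.3, 10.4, 10.5 and 11.8 FPKM in untreated replicates 1 to 4, 13.4, 16.8, 12.7 and 10.1 after PLG+EACA and 18.8, 20.6, 18.7 and 16.3 after PLG+EACA+RNase. It lay above all untreated libraries with PLG+EACA+RNase (log2 difference 0.73, SE 0.12, 0.95 after scaling, adjusted p = 0.000252) and overlapped them with PLG+EACA (0.24, adjusted p = 0.106, and 0.50, adjusted p = 0.00235, after scaling). Slc43a2 overlaps Gm45606 on the opposite strand, and the counting is not stated to use strand, so its value is uncertain.

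Sodium-coupled carriers of glutamine and related amino acids did not move together. Slc1a5 encodes ASCT2, an exchanger that brings glutamine in, and its level was 31, 31, 31.8 and 31 FPKM in untreated replicates 1 to 4, 17, 18.7, 16.3 and 15.3 after PLG+EACA and 19.5, 18.3, 19.1 and 18.1 after PLG+EACA+RNase. Every treated library lay below every untreated one (log2 difference -0.87, SE 0.05, -0.60 after scaling, adjusted p = 1.99e-07 with PLG+EACA, and -0.72, adjusted p = 7.74e-07, with PLG+EACA+RNase). Slc38a2, the glutamine and alanine carrier SNAT2, fell with PLG+EACA+RNase (log2 difference -0.63, SE 0.10, -0.40 after scaling, adjusted p = 0.000137). With PLG+EACA it was lower on the deposited values only (-0.30 as deposited and -0.03 after scaling). Its neighbour Slc38a1, 44479 bases away on chromosome 15, encodes SNAT1 and passed against untreated cells on the deposited values in neither preparation (-0.27, adjusted p = 0.0838, and 0.31, adjusted p = 0.0537). After scaling it was higher with PLG+EACA+RNase (0.53, adjusted p = 0.00236). Slc1a4, a relative of Slc1a5 that carries serine and alanine, had means of 5.51, 4.35 and 5.78 FPKM in untreated, PLG+EACA and PLG+EACA+RNase libraries and was lower with PLG+EACA as deposited only. Slc38a10 fell with PLG+EACA (-0.44 as deposited and -0.17 after scaling) from a mean of 30.1 to 22.1 FPKM.

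Carriers of osmolytes and amines of the Slc6 family differed widely among themselves. Slc6a12 (chr6:121343076-121365775, plus strand), the betaine and GABA carrier, showed the largest fall of the 83. Its level was 75.9, 63.7, 70.9 and 66.2 FPKM in untreated replicates 1 to 4, 32, 21.3, 34.2 and 27.2 after PLG+EACA and 27.3, 28.5, 34.6 and 26.4 after PLG+EACA+RNase. The lowest untreated library lay well above the highest treated one. It was 2.42-fold lower after PLG+EACA (log2 difference -1.27, SE 0.13, -1.0 after scaling, adjusted p = 5.75e-06) and 2.36-fold lower after PLG+EACA+RNase (log2 difference -1.24, SE 0.13, -1.01 after scaling, adjusted p = 8.01e-06). The taurine carrier Slc6a6, at 85.5, 73.8 and 66.9 FPKM in the 3 groups, was lower on the deposited values only (-0.21 as deposited and 0.06 after scaling with PLG+EACA). For the creatine carrier Slc6a8 (34.2, 31.6 and 35.6) and the glycine carrier Slc6a9 (8.20, 8.69 and 7.88) neither preparation passed on the deposited values. The serotonin carrier Slc6a4 rose with PLG+EACA, 0.39 as deposited and 0.66 after scaling, though its libraries overlapped those of untreated cells.

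Carriers of the lysosomal membrane went in different directions. Slc15a3 was 139, 130.4, 137 and 131 FPKM in untreated replicates 1 to 4, 188, 165, 203 and 214 after PLG+EACA and 164, 147, 170.4 and 194 after PLG+EACA+RNase. It rose with both preparations (log2 difference 0.51, SE 0.09, 0.79 after scaling, adjusted p = 0.000296, and 0.32, adjusted p = 0.00681), and it overlaps Tmem132a on the opposite strand. Its relative Slc15a4, at 12.9, 9.67 and 11.2 FPKM, was lower on the deposited values only (-0.40 as deposited and -0.13 after scaling with PLG+EACA). Slc36a1, a proton-coupled carrier of small amino acids, fell with PLG+EACA from 16.5 ± 0.642 to 10.04 ± 1.19 FPKM (mean ± SD, n = 4, log2 difference -0.70, SE 0.10, -0.43 after scaling, adjusted p = 9.71e-05) and stood at 13 ± 1.95 with PLG+EACA+RNase. Slc36a4, its relative, was at 21, 15.3 and 17.9, and Slc38a7, which exports glutamine from lysosomes, at 17.3, 14.5 and 16.4, both lower with PLG+EACA on the deposited values only. Of the other amino acid carriers, not of this lysosomal group, the cationic amino acid carrier Slc7a1 (15.9, 15.9 and 15.2) passed in neither comparison as deposited. Slc7a7 (5.08, 4.27 and 4.66) was lower with PLG+EACA as deposited only.

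**Figure D3:**
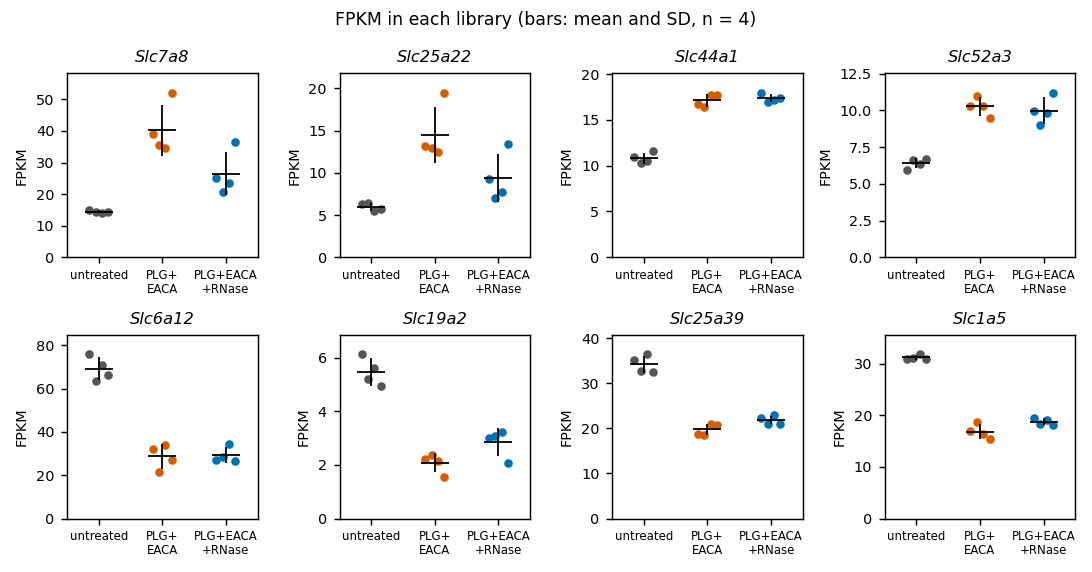
FPKM of 8 carriers in each of the 12 libraries, 1 panel per gene with its own axis from 0, points for libraries and bars for mean and SD (n = 4), chosen after their values were seen. Slc7a8, Slc25a22, Slc44a1 and Slc52a3 are higher and Slc6a12, Slc19a2, Slc25a39 and Slc1a5 lower in every treated library than in every untreated one.

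Of 21 mitochondrial carriers and relatives of the Slc25 family, 4 rose and 5 fell with PLG+EACA, and 4 rose and 7 fell with PLG+EACA+RNase. Slc25a22 (chr7:141429744-141437892, minus strand) carries glutamate into the matrix with a proton. Its level was 6.27, 6.42, 5.44 and 5.73 FPKM in untreated replicates 1 to 4, 13.2, 12.9, 12.4 and 19.5 after PLG+EACA and 9.32, 7.06, 7.71 and 13.4 after PLG+EACA+RNase. Treated libraries lay above untreated ones, and replicate 4 was again the highest of both treated groups (log2 difference 1.19, SE 0.18, 1.45 after scaling, adjusted p = 0.000105, with PLG+EACA). With PLG+EACA+RNase the difference was 0.57, SE 0.18, adjusted p = 0.0147. Without replicate 4 of the treated group these were 1.05 and 0.39. The aspartate and glutamate exchangers Slc25a12 and Slc25a13 did not move together: Slc25a12 rose with PLG+EACA (0.25 as deposited and 0.52 after scaling), and Slc25a13 was lower on the deposited values only (-0.45 as deposited and -0.20 after scaling).

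Slc25a37, which encodes mitoferrin-1, the carrier that brings iron to the matrix for heme and iron-sulfur clusters, had 8.24, 6.94, 6.72 and 7.59 FPKM in untreated replicates 1 to 4, 11.6, 9.82, 10.9 and 9.11 after PLG+EACA and 11.4, 12, 13.2 and 10.4 after PLG+EACA+RNase. It rose in both (log2 difference 0.46, SE 0.09, 0.72 after scaling, adjusted p = 0.000714, and 0.64, adjusted p = 6.99e-05). Mitoferrin-2, encoded by Slc25a28, was at 5.43, 4.63 and 4.45 FPKM and lower on the deposited values only (-0.21 as deposited and 0.04 after scaling and, with PLG+EACA+RNase, -0.26 as deposited and -0.05 after scaling). Slc25a39, which takes glutathione into mitochondria, was 35.1, 32.8, 36.5 and 32.4 FPKM in untreated replicates 1 to 4, 18.8, 18.5, 21 and 20.8 after PLG+EACA and 22.3, 21, 23 and 21.1 after PLG+EACA+RNase. Its groups did not overlap (log2 difference -0.78, SE 0.06, -0.50 after scaling, adjusted p = 5.43e-07, and -0.64, adjusted p = 2.47e-06). The glycine carrier of heme synthesis, Slc25a38, was lower as deposited only, at 8.77, 6.28 and 6.76.

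Slc25a30, a carrier near the uncoupling proteins in sequence, fell in both (12.5 to 6.80 and 8.01 FPKM, -0.84 and -0.62). So did Slc25a10, the dicarboxylate carrier (11.3 to 6.48 and 7.53, -0.77 and -0.57), and Slc25a24, which exchanges ATP-magnesium for phosphate (16.7 to 11.2 and 11.7, -0.56 and -0.50). Carriers of the main energy routes stayed close to the shift of all genes. The ADP/ATP carriers Slc25a5 (210.1, 177 and 171) and Slc25a4 (57.6, 45 and 45.2), the phosphate carrier Slc25a3 (55.9, 48.7 and 47.1) and the oxoglutarate carrier Slc25a11 (29.9, 24.5 and 25.2) were all lower with PLG+EACA on the deposited values, with differences of -0.20 to -0.35, and between -0.08 and 0.08 after scaling, so that the direction of Slc25a5 and Slc25a3 turned. Of these Slc25a4 passed with both scalings with PLG+EACA+RNase (-0.35 as deposited and -0.12 after scaling). The citrate carrier Slc25a1 (23.1, 25.3 and 26.4) rose with PLG+EACA+RNase (0.18 as deposited and 0.41 after scaling), and Slc25a17, whose protein is peroxisomal, rose with PLG+EACA (0.31 as deposited and 0.58 after scaling).

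Slc25a44, a branched-chain amino acid carrier, rose with PLG+EACA+RNase (0.32 as deposited and 0.55 after scaling), and Slc25a46, a protein of the outer membrane, fell with it (-0.40 as deposited and -0.19 after scaling). Slc25a51, the NAD carrier, was lower with PLG+EACA as deposited only (-0.47 as deposited and -0.20 after scaling), and Slc25a45 was lower as deposited only in both (-0.43 and -0.43).

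Carriers of vitamins were few but held some of the larger changes. The thiamine importer Slc19a2 (chr1:164249046-164265385, plus strand) was 6.13, 5.2, 5.60 and 4.95 FPKM in untreated replicates 1 to 4, 2.22, 2.37, 2.14 and 1.56 after PLG+EACA and 3.0, 3.08, 3.22 and 2.06 after PLG+EACA+RNase. The highest treated library lay below the lowest untreated one (log2 difference -1.22, SE 0.13, -0.98 after scaling, adjusted p = 7.43e-06, and -0.85, adjusted p = 0.000128). Slc52a3, an importer of riboflavin, was 5.95, 6.65, 6.36 and 6.71 FPKM in untreated replicates 1 to 4, 10.3, 11, 10.3 and 9.47 after PLG+EACA and 9.96, 8.98, 9.80 and 11.2 after PLG+EACA+RNase. It rose by 0.64, adjusted p = 7.51e-06, and by 0.60, adjusted p = 1.35e-05, with no overlap. The ascorbate importer Slc23a2 rose with PLG+EACA from 25 ± 1.13 to 28.9 ± 1.65 FPKM (n = 4, log2 difference 0.21, SE 0.05, 0.48 after scaling, adjusted p = 0.00472) and had 25.5 ± 1.23 with PLG+EACA+RNase. The heme carrier Slc48a1 was at 200.1, 200.3 and 205 FPKM in the 3 groups and did not pass as deposited (0.00, adjusted p = 0.978, and 0.04, adjusted p = 0.563). After scaling it was higher in both (0.28 and 0.27, adjusted p = 0.00106 and 0.00137), and it overlaps Hdac7 on the opposite strand.

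None of 13 carriers of zinc, copper and magnesium rose with both scalings, and 1 was higher after scaling alone in each comparison (Slc30a7 after PLG+EACA and Slc39a6 after PLG+EACA+RNase). With PLG+EACA 3 fell and with PLG+EACA+RNase 5, while 10 were lower as deposited in each. Of all genes tested 14.9% and 16% rose in the same order, and 26.4% fell in each. As deposited 53.4% and 48.4% of all genes were lower. The median difference of the 13 was -0.31 and -0.30 as deposited, against -0.26 and -0.20 for all genes. The copper importer Slc31a1 fell from 23.9 ± 1.23 to 15.2 ± 0.705 and 16.1 ± 1.4 FPKM (-0.63 and -0.55, adjusted p = 5.12e-06 and 1.53e-05). Its neighbour Slc31a2, 62316 bases away on chromosome 4, had 105, 106, 108 and 106 FPKM in untreated replicates 1 to 4, 85.4, 85.4, 91.2 and 81.0 after PLG+EACA and 83.8, 92.0, 89.7 and 80.5 after PLG+EACA+RNase. All treated values of Slc31a2 lay below all untreated ones, by -0.31 and -0.30 as deposited, but -0.03 and -0.06 after scaling, which did not pass. Among the Slc39 genes, whose products bring zinc into the cytosol, Slc39a4 (19.2, 13.1 and 14.4) and Slc39a9 (5.73, 4.21 and 3.99, overlapping Erh) fell in both, and Slc39a3 (9.51, 7.05 and 6.5) with PLG+EACA+RNase. Slc39a1 (95.9, 83.6 and 78.2) and Slc39a11 (17.3, 14 and 15.2) were lower with PLG+EACA as deposited only, while Slc39a6 (12.6, 11.1 and 13.7) and Slc39a2 (24.6, 18.9 and 26.6, overlapping Mettl17 on the same strand) passed in neither comparison as deposited. Of the exporters into vesicles and the Golgi, Slc30a4 fell with PLG+EACA+RNase (log2 difference -0.56, SE 0.08, -0.34 after scaling, adjusted p = 5.64e-05), and Slc30a7 was lower with it as deposited only (-0.26 as deposited and -0.05 after scaling). The magnesium carriers Slc41a1 (6.66, 5.07 and 5.32) and Slc41a2 (17.3, 14.9 and 13.9) were lower as deposited only.

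Of 6 carriers of bicarbonate, protons and other ions, 1 rose and 0 fell with PLG+EACA, and 1 rose and 3 fell with PLG+EACA+RNase. Those that fell were the potassium-chloride cotransporter Slc12a4 (29.8, 24.6 and 20.6 FPKM, -0.53), its relative Slc12a9 (5.78, 4.30 and 4.15, -0.44) and the sodium-bicarbonate cotransporter Slc4a7 (5.2, 4.33 and 3.26, -0.61). The anion exchanger Slc4a2 (13.2, 10.7 and 11.5, overlapping Fastk) was lower as deposited only.

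Choline carriers and fatty acid carriers made up 4 of the set, of which 1 rose in each comparison, 2 fell with PLG+EACA and 1 fell with PLG+EACA+RNase. Slc44a1, a choline carrier of the plasma membrane and mitochondria, was 11, 10.2, 10.5 and 11.6 FPKM in untreated replicates 1 to 4, 16.7, 16.4, 17.7 and 17.7 after PLG+EACA and 17.9, 16.9, 17.2 and 17.4 after PLG+EACA+RNase. It rose in both (log2 difference 0.64, SE 0.05, 0.91 after scaling, adjusted p = 6.11e-07, and 0.66, SE 0.05, adjusted p = 5.55e-07), and no treated library overlapped an untreated one. Between the preparations it differed by 0.02, SE 0.05 (adjusted p = 0.786). Its relative Slc44a2 had 6.40, 5.42 and 7.10 FPKM and was lower with PLG+EACA as deposited only (-0.22 as deposited and 0.03 after scaling). Slc27a1, a fatty acid carrier that also activates its substrate to the CoA ester, fell with PLG+EACA, at 10.3, 9.14, 10.5 and 9.10 FPKM in untreated replicates 1 to 4, 4.87, 4.95, 5.13 and 4.03 after PLG+EACA and 6.64, 7.65, 8.22 and 5.15 after PLG+EACA+RNase (log2 difference -0.97, SE 0.12, -0.71 after scaling, adjusted p = 2.44e-05). With PLG+EACA+RNase it was lower as deposited only (-0.48 as deposited and -0.26 after scaling). Slc27a4, of the same family, fell in both from 15.3 ± 0.548 to 10.7 ± 0.554 and 10.2 ± 0.698 FPKM (-0.49 and -0.57).

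The sugar carriers of the set were Slc2a6 and Slc50a1. Slc2a6 had 168, 181, 161 and 177 FPKM in untreated replicates 1 to 4, 243, 234, 254 and 283 after PLG+EACA and 199.6, 166, 180.4 and 231 after PLG+EACA+RNase. With PLG+EACA all its values lay above all untreated ones (log2 difference 0.56, SE 0.09, 0.84 after scaling, adjusted p = 0.000213), whereas with PLG+EACA+RNase they overlapped (0.17, adjusted p = 0.128, and 0.40, adjusted p = 0.00797, after scaling). Slc50a1, a Golgi and plasma membrane glucose carrier, fell in both, from 9.11 ± 0.886 to 5.72 ± 0.553 and 5.70 ± 0.594 FPKM (-0.63 and -0.63).

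Of 3 nucleoside and nucleobase carriers 2 fell in both preparations. Slc29a3, which releases nucleosides from lysosomes, was 26.5, 26, 26.1 and 24.9 FPKM in untreated replicates 1 to 4, 15.4, 14.4, 15.9 and 16.9 after PLG+EACA and 17.3, 16.1, 18.8 and 15.4 after PLG+EACA+RNase, with no overlap (log2 difference -0.71, SE 0.06, -0.44 after scaling, adjusted p = 2.31e-06, and -0.60, adjusted p = 8.71e-06). Slc29a1, the equilibrative carrier of the plasma membrane, went from 9.85 ± 0.178 to 6.02 ± 0.121 and 7.29 ± 0.594 FPKM (-0.67 and -0.41). The purine nucleobase carrier Slc43a3 (5.71, 3.71 and 4.52) was lower with PLG+EACA as deposited only (-0.56 as deposited and -0.31 after scaling).

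Of 4 genes for nucleotide sugars and other substrates of the Golgi and endoplasmic reticulum, Slc35a4 fell in both (18.6, 12.6 and 11.5, -0.54 and -0.67, overlapping Apbb3) and Slc37a3 with PLG+EACA+RNase (5.19, 3.85 and 3.70, -0.44 as deposited and -0.23 after scaling). Slc37a2, a sugar-phosphate exchanger, and the acetyl-CoA carrier Slc33a1 (5.74, 4.5 and 5.26) were lower with PLG+EACA as deposited only. The sulfate carrier Slc26a2 fell with PLG+EACA+RNase (log2 difference -0.61, SE 0.07, -0.39 after scaling, adjusted p = 1.01e-05), and the phosphate carrier Slc20a1, at 12.4, 10.6 and 11.5, passed in neither comparison as deposited. Slc22a4 carries ergothioneine, a dietary antioxidant, and rose in both, at 23.3, 22.4, 24.1 and 23.6 FPKM in untreated replicates 1 to 4, 31.9, 31.5, 35.3 and 25.6 after PLG+EACA and 33.4, 34.9, 30.8 and 32.9 after PLG+EACA+RNase (log2 difference 0.40, SE 0.08, 0.67 after scaling, adjusted p = 0.000925, and 0.49, adjusted p = 0.000227). The carnitine carrier Slc22a5, 91463 bases away on chromosome 11, was at 5.37, 4.25 and 4.45 and lower as deposited only. The sialic acid exporter of lysosomes, Slc17a5 (10.8, 8.26 and 8.90), was lower as deposited only too. Slc49a4, a lysosomal membrane protein, rose in both, from 11.4 ± 0.46 to 15.4 ± 1.33 and 17.4 ± 0.803 FPKM (0.41 and 0.59). The orphan carrier Slc10a3 (5.81, 4.18 and 4.07, overlapping Ubl4a on the same strand) fell with PLG+EACA+RNase (-0.46 as deposited and -0.25 after scaling).

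The last comparison, PLG+EACA+RNase against PLG+EACA, asks how the carriers differed between the 2 preparations, and no group was given RNases alone. As deposited, its differences use none of the libraries that chose the carriers. Its standard errors do use them, since all 3 groups were fitted in 1 model. The untreated libraries varied least, with a median coefficient of variation of the carriers of 3.88%, against 9.0% after PLG+EACA and 8.89% after PLG+EACA+RNase. By both scalings 10 carriers were higher and 9 lower, where 10.4% and 8.68% of all genes were. On the deposited values alone 10 were higher and 10 lower (all genes 12.1% and 8.73%), and after scaling 11 and 11 (all genes 10.6% and 11.4%). The carriers' shares were near those of all genes, and none differed 2-fold. These counts rested on few libraries: without PLG+EACA+RNase replicate 2 or replicate 3 only 5 were higher as deposited, and without its replicate 4 there were 21. The count of lower carriers was 3 without PLG+EACA+RNase replicate 3, 4 without replicate 2, and 6 without replicate 1, PLG+EACA replicate 1 or PLG+EACA replicate 4. With only these 2 groups in the fit, 3 were higher (Slc25a44, Slc37a2 and Slc44a2) and 2 lower (Slc4a7 and Slc26a2). Every other carrier of the set that was called in this comparison, Slc7a8 included, lost its call in that fit.

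Among amino acid carriers the difference went both ways. Slc38a1 had a level of 7.36, 6.52, 7.65 and 5.28 FPKM with PLG+EACA and 9.73, 11.8, 12.1 and 7.83 with PLG+EACA+RNase. No values overlapped (log2 difference 0.59, SE 0.13, 0.55 after scaling, adjusted p = 0.0129), and the difference was 0.71 without PLG+EACA+RNase replicate 4, the lowest of its group. The call was lost with only these 2 groups in the fit (adjusted p = 0.0537). Slc38a2, beside it on chromosome 15, was lower instead, with 25.7, 29.3, 26.5 and 20.4 and then 22.8, 19.9, 17.9 and 19.9 (log2 difference -0.33, SE 0.10, -0.37 after scaling, adjusted p = 0.0349), though the groups overlapped. Slc43a2 was higher (0.49, adjusted p = 0.0186), as was Slc36a1 (0.35, adjusted p = 0.0362). Slc7a8 was lower with RNase exposure (log2 difference -0.61, SE 0.16, -0.65 after scaling, adjusted p = 0.0218) and still stood above untreated cells. For Slc43a2, Slc36a1 and Slc7a8 the groups overlapped in some library: PLG+EACA+RNase replicate 4 of Slc7a8 (36.4 FPKM) lay within the PLG+EACA range.

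**Figure D4:**
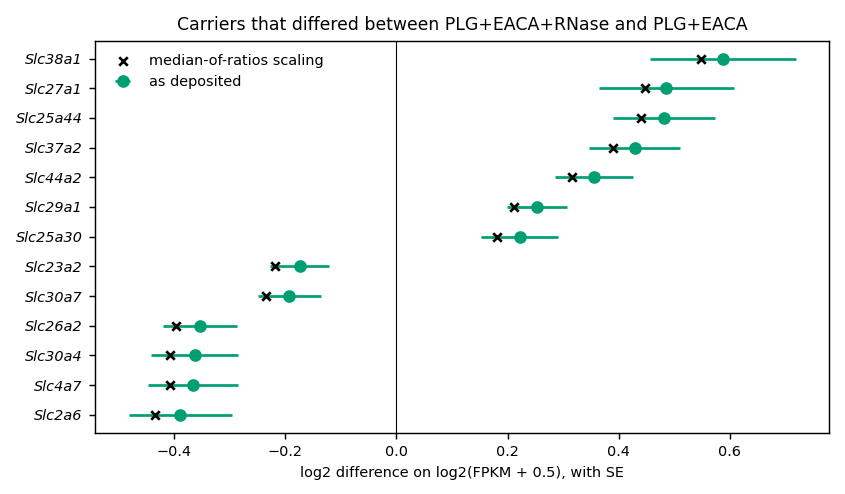
Difference between PLG+EACA+RNase and PLG+EACA on log2(FPKM + 0.5), with its standard error (n = 4 libraries a group), for the 13 carriers that passed with both scalings and whose groups did not overlap. Crosses show the value after median-of-ratios scaling; values run from -0.39 for Slc2a6 to 0.59 for Slc38a1 as deposited.

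Slc2a6 was lower after RNase exposure, with 243, 234, 254 and 283 FPKM and then 199.6, 166, 180.4 and 231 (log2 difference -0.39, SE 0.09, -0.43 after scaling, adjusted p = 0.016). The call on Slc2a6 ended without PLG+EACA+RNase replicate 3 (adjusted p = 0.0522) and with only these 2 groups in the fit (0.0583). Of the mitochondrial carriers, Slc25a44 was higher, with 12.6, 13.2, 14.1 and 11.3 and then 18.1, 20.2, 19.5 and 14.7 (log2 difference 0.48, SE 0.09, 0.44 after scaling, adjusted p = 0.00782). Slc25a51 (0.39, adjusted p = 0.0196, groups overlapping) and Slc25a30 (0.22, adjusted p = 0.0412) were higher too, and Slc25a22 was lower (-0.62, adjusted p = 0.0325, groups overlapping). Slc27a1 had 4.87, 4.95, 5.13 and 4.03 and then 6.64, 7.65, 8.22 and 5.15, which lay between PLG+EACA and untreated levels (log2 difference 0.49, SE 0.12, 0.45 after scaling, adjusted p = 0.0191). The choline carrier relative Slc44a2 was higher as well (0.36, adjusted p = 0.00871), as were Slc29a1 (0.25, adjusted p = 0.0111, and 0.0533 with only these 2 groups in the fit) and Slc37a2. Slc37a2 had 3.90, 3.78, 4.59 and 3.81 and then 5.34, 5.78, 6.47 and 4.81 FPKM (0.43, adjusted p = 0.00779).

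Lower with RNase exposure, and without overlap, were also carriers of ions and zinc. Slc4a7 had 4.36, 4.58, 3.88 and 4.5 FPKM and then 3.62, 3.15, 2.75 and 3.51 (log2 difference -0.37, SE 0.08, -0.41 after scaling, adjusted p = 0.0119). Slc26a2 had 7.26, 7.45, 7.15 and 5.94 and then 5.47, 5.12, 5.08 and 5.59 (log2 difference -0.35, SE 0.07, -0.40 after scaling, adjusted p = 0.00713). For both, PLG+EACA lay between untreated cells and PLG+EACA+RNase. The zinc carrier Slc30a4 was lower by -0.36 (adjusted p = 0.0112, and 0.0504 with only these 2 groups in the fit) and Slc30a7 by -0.19 (adjusted p = 0.0344). Slc23a2 was lower by -0.17 (adjusted p = 0.0394). Leaving out a single library ended the calls on Slc23a2, Slc30a7, Slc25a30 and Slc27a1 in several cases, with an adjusted p of up to 0.112 for Slc23a2, 0.0905 for Slc30a7, 0.112 for Slc25a30 and 0.0595 for Slc27a1, each without PLG+EACA+RNase replicate 2. Slc12a4 was the carrier lower on the deposited values only (-0.25 as deposited and -0.29 after scaling).

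**Figure D5:**
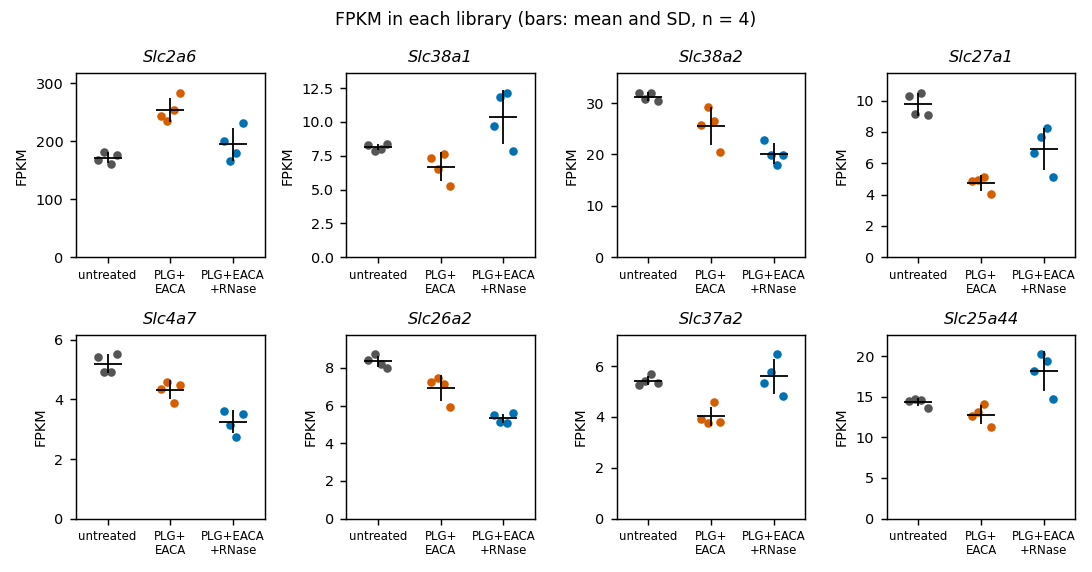
FPKM of 8 carriers in each of the 12 libraries, 1 panel per gene with its own axis from 0, points for libraries and bars for mean and SD (n = 4), chosen after their values were seen. Slc38a1, Slc27a1, Slc37a2 and Slc25a44 are higher and Slc2a6, Slc4a7 and Slc26a2 lower with PLG+EACA+RNase than with PLG+EACA in every library, while Slc38a2 overlaps.

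Features that the rule did not use were position and upstream sequence. The 83 genes lay on 19 chromosomes, with 12 on chromosome 11, and 3 pairs were within 100 kb of each other: Slc22a5 and Slc22a4, Slc38a1 and Slc38a2, and Slc31a2 and Slc31a1. In none of the 3 pairs did both genes rise or both fall with both scalings in a comparison. Exons of 12 carriers overlap those of another tested gene, which makes their values uncertain: beside those named with their partner above, they are Slc6a6, Slc7a7, Slc25a11 and Slc20a1. RefSeq windows of 250 bases before to 50 bases after a start (GRCm38.p6) were found for 63 of the 83. The core of the interferon-stimulated response element was in 1 of 63 (1.59%, Slc25a22), against 3.99% of 27025 genes with a window and 4.06% of 8184 tested genes. The AP-1 motif TGANTCA was in 8 of 63 (12.7%, against 8.97% and 6.45%), Slc6a12 and Slc49a4 among them. The E-box CACGTG, a motif of TFEB-like factors that act on lysosomal genes and of MYC, was in 14 of 63 (22.2%, against 8.09% and 12.5%), among them Slc22a4, Slc27a1, Slc29a1, Slc31a2, Slc36a1 and Slc38a7. The motif TGATGNAA, which ATF4 and its partners bind, was in 4 of 63 (6.35%, against 4.51% and 2.90%): Slc1a4, Slc49a4, Slc50a1 and Slc7a7. All were searched on both strands. These are matches of letters, not binding sites, and a window without a match says only that the letters are not there.

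A list of 39 related genes outside the symbol rule (carriers of other names, carrier chaperones and channels) was set beside the carriers. Of these 34 were tested, and 3 were higher and 22 lower as deposited with PLG+EACA, 9 and 13 after scaling. With PLG+EACA+RNase 4 were higher and 22 lower, 9 and 12 after scaling, and against PLG+EACA 6 were higher and 0 lower, 4 and 1 after scaling. Of all genes tested 14.9% were higher and 53.4% lower as deposited with PLG+EACA, 27.3% and 26.4% after scaling. For PLG+EACA+RNase the shares were 16% and 48.4%, and 28.4% and 26.4% after scaling. Between the preparations they were 12.1% and 8.73%, and 10.6% and 11.4% after scaling. The organic anion carriers went opposite ways: Slco3a1 rose from 14 ± 0.805 to 32.1 ± 4.36 and 25 ± 4.81 FPKM (n = 4, 1.16 and 0.80), and Slco4a1 fell from 52.4 ± 5.36 to 15.9 ± 2.7 and 17.7 ± 2.94 (-1.69 and -1.55, adjusted p = 8.36e-07 and 1.78e-06). Mfsd12, an importer of cysteine into lysosomes, fell from 106 ± 2.66 to 53.5 ± 4.71 and 59.7 ± 4.69, and Mfsd1 rose from 78.4 ± 2.21 to 93.2 ± 4.20 and 89.4 ± 2.76. Emb, which chaperones monocarboxylate carriers, fell (-0.73 and -0.89), and so did the phosphate exporter Xpr1 (-0.78 and -0.73). Also lower with both scalings in both were Mtch1, Letm1, Ostm1, Pqlc1 and Pqlc2, and the scaffold Slc9a3r2. Vdac3, a channel of the outer mitochondrial membrane, rose by 0.12 and 0.12. With RNase exposure against PLG+EACA, the heme exporter Flvcr1 (4.21 to 6.64 FPKM, 0.59, adjusted p = 0.0114) and the lysosomal cystine exporter Ctns (6.11 to 9.63, 0.61, adjusted p = 0.0121), named after their values were seen, were higher with both scalings.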

How the data were processed

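Gene expression was measured by RNA-seq of 12 libraries of mouse macrophages in 3 groups of 4. The authors deposited FPKM values with 3 decimals for 32246 genes, and the submitters' processing notes list the build GRCm38.p6 and the tools STAR 2.7.11a, cutadapt 4.5, DESeq2 1.40.2, FastQC 0.12.1 and featureCounts 2.0.6 without giving their roles. Whether counting used strand is not given in the sources used here, so genes that overlap another are uncertain. FPKM times the length listed for each gene gave whole reads (within 0.1 read) for 100.0% of the values below 1000 reads that were checked. From these steps the depth of each library was found, 12940888 to 22677041 reads. Each carrier had at least 105 reads in every library, and for the carriers with the fewest reads counting noise adds to the spread.

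From the deposited FPKM values log2(FPKM + 0.5) was computed, which understates changes of low genes, and genes reaching 1 FPKM in 4 or more libraries were kept. All 3 groups were fitted in 1 model with limma 3.58.1 (R 4.3.3) and a variance trend on mean level, with Benjamini-Hochberg adjustment over 11165 genes and a threshold of 0.05. The same fit was run after scaling by the median ratio to a reference of geometric means. Alternatives were other pseudocounts, other filters, the replicate number as a block, only the groups compared, each library left out, and other rules for the carriers. The steps were tested on simulated data with the same spread in all groups and few genes changed. In these, changes of genes at the carriers' levels were recovered, while small changes of weaker genes were recovered less often. The requirement on recovery was set at the carriers' levels after a first limit over all genes had not been met. The simulation did not cover groups of unequal spread, a shift of all genes, or changes as small as most of those reported.

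The carriers, the substrate classes and the marker and partner lists were chosen with earlier results of these data known. Genes named were those with the 10 largest changes in each direction of a comparison that passed with both scalings and did not overlap between groups, the highest carrier of each class, those next to the 5 FPKM limit, and partners that passed in both comparisons with untreated cells. Other carriers were added to describe their class, and the upstream sequences shown and the carriers drawn by library were chosen after their values were seen. Sequence windows are from RefSeq on GRCm38.p6. Some genes are counted in the totals but not reported here by name.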

Additional observations from a re-analysis of the deposited data

Results flagged for a closer look

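Of 120 groups of 4 libraries (40 named carriers in 3 groups), 8 held 1 library whose gap to the nearest of the others took up more of the group's range than Dixon's limit for 4 values allows. Chance gives about 1 such group in 20.

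Untreated libraries gave 4 of them. Slc1a5, the glutamine exchanger, was highest in replicate 3 at 31.8 FPKM against 31.03 for the next library, in a group whose spread is narrow. Slc23a2, the ascorbate importer, was highest in replicate 4 at 26.7 against 24.5. The branched-chain amino acid carrier Slc25a44 was lowest in replicate 4 at 13.6 against 14.5, and the sugar carrier Slc50a1 was lowest in replicate 4 at 7.80 against 9.46.

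With PLG+EACA, the glutamate carrier Slc25a22 was highest in replicate 4 at 19.5 FPKM against 13.2 for the next library. Slc37a2 was highest in replicate 3 at 4.59 against 3.91, and Slc7a7 was lowest in replicate 2 at 3.59 against 4.43. With PLG+EACA+RNase, Slc23a2 was lowest in replicate 2 at 23.7 against 25.9.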

How the results depend on the processing

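Against untreated cells, with 14 higher and 57 lower as deposited for PLG+EACA and 12 and 49 for PLG+EACA+RNase, median-of-ratios scaling gave 19 lower for PLG+EACA, and 23 higher and 27 lower for PLG+EACA+RNase. With carriers chosen by an untreated mean of at least 10 FPKM (49 of the 83), 8 were higher and 32 lower with PLG+EACA and 29 lower with PLG+EACA+RNase, since fewer carriers were counted. Leaving out 1 library at a time gave 13 to 15 higher and 53 to 56 lower with PLG+EACA, and 12 to 14 and 46 to 49 with PLG+EACA+RNase. Between the preparations (10 higher, 10 lower) the same gave 5 to 21 higher and 3 to 13 lower, fitting only the groups compared 3 and 2, an untreated mean of at least 10 FPKM 5 and 6, and no filter on low values 5 lower, the cause of which was not tested.

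With a replicate block the counts were 14 higher and 60 lower, 14 and 51, and 17 and 11, in the same order of comparisons. The labels do not say whether libraries of the same number belong together. Their deviations correlated between -0.18 and 0.33 over the 12 pairs. The highest was that of replicate 4 between PLG+EACA+RNase and PLG+EACA.

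Over 49 named results (a carrier in a comparison), 698 alternative values kept the direction and the call and 33, all between the preparations, kept the direction and lost the call: 8 each for Slc23a2, Slc25a30 and Slc30a7 (adjusted p of up to 0.112, 0.112 and 0.106), 4 for Slc27a1, 2 for Slc2a6, and with only the groups compared 1 each for Slc29a1, Slc30a4 and Slc38a1.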

Other observations

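Of the 216 carriers under 5 FPKM in untreated cells, 58 were tested and 156 had a mean under 1 FPKM in every group. Of those tested 5 were higher and 39 lower after PLG+EACA, 7 and 32 after PLG+EACA+RNase, and 11 and 2 between the preparations, as deposited, where 14.9% and 53.4%, 16% and 48.4%, and 12.1% and 8.73% of all genes tested were higher and lower. After median-of-ratios scaling the counts were 10 and 22, 14 and 19, and 11 and 2, and the shares of all genes 27.3% and 26.4%, 28.4% and 26.4%, and 10.6% and 11.4%. A mean of 5 FPKM was reached in a treated group by 4, named after their values were seen. Slc16a6, a monocarboxylate carrier family member that exports ketone bodies in the liver, had 2.01, 1.87, 1.75 and 1.93 FPKM in untreated replicates 1 to 4, 1.93, 1.81, 2.2 and 1.06 after PLG+EACA, and 5.60, 6.55, 6.73 and 3.16 after PLG+EACA+RNase. Every PLG+EACA+RNase library lay above every other one, and the difference from PLG+EACA was 1.39 on the log2 scale (limma, adjusted p = 0.0036). The glutamate importer Slc1a2 had means of 1.98, 5.36 and 3.41 FPKM in untreated, PLG+EACA and PLG+EACA+RNase libraries. Slc16a10, a carrier of aromatic amino acids, had 4.80, 7.00 and 5.16, and Slc25a25, a carrier of ATP-magnesium and phosphate, had 4.89, 6.57 and 5.19.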
